A study of Mus musculus with 17 samples.

Results

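Slpi, Wfdc2, Wfdc15b, Serpinb11 and Serpina1e are 5 mouse genes of protease inhibitor families, 3 with WAP (whey acidic protein) domains and 2 serpins. They were followed in whole uteri of Egr1 knockout and wild-type mice before and after estradiol (E2), as 5 of the 14737 genes measured. They were chosen by their measured differences between the genotypes and their changes with time on these same arrays, so their own values are given as a description and without a test. For each gene the brightest of the probes annotated to its symbol was taken.

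The study hybridised total RNA of uterine tissue to 17 Illumina MouseWG-6 v2 bead arrays. The labels place 9 arrays in wild type (WT) and 8 in Egr1 knockout (KO), before E2 (0 h) or 3 h, 6 h or 24 h after it, with 2 arrays in each group and 3 in WT at 3 h. All groups other than the 0 h groups had received E2, and the labels name no second allele, Cre driver or other agent. The sources used here do not give the dose of E2, the strain or age of the mice, any ovariectomy or vehicle, the knockout allele or the number of uteri behind each array. Whether replicate arrays stem from different mice is not stated in the labels, and a p-value below may rest on technical spread alone. The values are log2 intensities that were already normalized between arrays, with a median of 8.20 on every array and a highest value of 15.94, so a change here is a change against the bulk of the array.

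The Egr1 probe itself was read high on the KO arrays at every time. It was 13.55 ± 0.11 in KO against 12.37 ± 0.19 in WT at 0 h (SD, n = 2 each), and KO minus WT was -0.15 ± 0.17 at 3 h, 0.73 ± 0.18 at 6 h and 1.65 ± 0.18 at 24 h (log2, SE), past limma's threshold at 0 and 24 h. The sources used here do not say whether the probe lies inside the deleted sequence. KO and WT therefore stand for arrays labelled so. Replicate arrays of a group correlated at 0.990 to 0.997 over all probes. The second KO array at 0 h stood apart in immune markers, which are given beside Slpi. Smooth muscle, stromal and epithelial markers were all read well above the array median, with lowest list means of 12.02, 10.48 and 9.91 on any array.

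WAP-domain proteins are small secreted proteins held together by disulfide bonds, and several of them block serine proteases and microbes at mucosal surfaces. Serpins are larger, and trap a protease by a change of shape that destroys both molecules. In the uterus such inhibitors are made mostly by the luminal and glandular epithelium and, for some, by leukocytes, and estrogen is known to set the level of several secreted uterine proteins. EGR1 is a zinc-finger transcription factor that is induced rapidly in the uterus by estrogen.

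Slpi, Wfdc2 and Wfdc15b lie in the WFDC gene cluster of chromosome 2. Serpinb11 lies in the clade B serpin cluster of chromosome 1, and Serpina1e among the alpha-1-antitrypsin genes of chromosome 12. The 250 bases before an annotated transcription start were read for all 5 genes from RefSeq (GRCm38.p6) and searched on both strands for 6 patterns. The patterns were the full estrogen response element (GGTCA and TGACC with 3 bases between them), its single arm GGTCA, the EGR site GCGNGGGCG, the GC box GGGCGG, the AP-1 site TGANTCA and the TATA box TATAAA. The single arm is part of every full element, and the GC box can overlap the EGR site. Slpi (chr2:164356508-164356757, minus strand) and Serpina1e (chr12:103956898-103957147, minus strand) held none of the 6 in this window. The other promoters are shown because each held at least 1 match, with the matched letters in capitals.
Wfdc2, chr2:164562465-164562714, plus strand: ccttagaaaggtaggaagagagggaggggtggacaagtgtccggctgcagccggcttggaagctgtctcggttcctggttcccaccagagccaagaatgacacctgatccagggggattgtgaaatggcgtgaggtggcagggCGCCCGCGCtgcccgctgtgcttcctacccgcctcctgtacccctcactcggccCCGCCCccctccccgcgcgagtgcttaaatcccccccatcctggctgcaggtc
Wfdc15b, chr2:164221664-164221913, minus strand: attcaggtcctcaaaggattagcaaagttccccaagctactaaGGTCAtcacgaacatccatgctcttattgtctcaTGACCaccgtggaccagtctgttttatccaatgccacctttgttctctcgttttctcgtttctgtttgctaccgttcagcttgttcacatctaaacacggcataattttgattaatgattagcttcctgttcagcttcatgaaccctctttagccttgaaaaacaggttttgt
Serpinb11, chr1:107362064-107362313, plus strand: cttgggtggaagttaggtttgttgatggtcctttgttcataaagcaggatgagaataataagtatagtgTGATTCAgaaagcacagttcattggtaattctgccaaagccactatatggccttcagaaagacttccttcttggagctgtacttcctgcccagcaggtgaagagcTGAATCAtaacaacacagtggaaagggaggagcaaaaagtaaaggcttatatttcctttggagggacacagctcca

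Positions are counted back from the transcription start, with -1 the base just before it. The Wfdc2 promoter shown held an EGR site at -107 and a GC box at -53, both on the minus strand, and 64.8% of its bases are G or C. It is 1 of 2 promoters annotated for this gene, and the matches of the other are not given. Wfdc15b held 1 such arm on each strand, at -207 and -173. Serpinb11 held AP-1 sites at -181 and -76. Of 32851 mouse promoters of the same length, 4.7% held the EGR site, 32.7% the GC box, 35.2% the single arm and 6.75% the AP-1 site. The full estrogen response element was in 0.0639% of them and the TATA box in 12.4%. These are matches of letters, and no binding was measured.

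Slpi encodes secretory leukocyte peptidase inhibitor, which blocks neutrophil elastase and cathepsin G. In WT its value was 9.10 and 9.07 at 0 h, 9.55, 9.71 and 9.67 at 3 h, 8.66 and 8.73 at 6 h, and 10.04 and 9.57 at 24 h. The KO arrays read 9.38 and 11.87 at 0 h, 8.80 and 8.80 at 3 h, 9.79 and 9.02 at 6 h, and 8.57 and 8.64 at 24 h. The second KO array at 0 h was the highest of all 17, and the KO arrays at 24 h were the lowest. WT and KO did not overlap at any time, with KO above WT at 0 and 6 h and below it at 3 and 24 h.

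The Slpi difference of KO from WT was 1.54 ± 0.51 (log2, SE of the fit) at 0 h, -0.84 ± 0.47 at 3 h, 0.71 ± 0.51 at 6 h and -1.20 ± 0.51 at 24 h. The 0 h value rests on 1 array, since it was 0.30 without the second KO array at 0 h. The 6 h value was 0.32 without the first KO array of that time and 1.09 without the second. The gap of 2.49 between the 2 KO arrays at 0 h was exceeded by only 3 of the 14737 genes. The changes from 0 h in KO, -1.82 at 3 h, -1.22 at 6 h and -2.02 at 24 h, were -0.58, 0.02 and -0.78 without the second KO array at 0 h. The changes from 0 h in WT, which do not use it, were 0.56 at 3 h, -0.39 at 6 h and 0.72 at 24 h.

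On the same second KO array at 0 h the 10 measured granulocyte markers had a mean of 9.21, against 8.13 to 8.40 on the other 16 arrays. Their summed log2 level was 92.1 there and 83.0 on the first KO array at 0 h. S100a8, a calcium-binding protein of neutrophils, read 11.61 there and 8.35 on the first KO array at 0 h, and S100a9, its partner, read 11.11 and 8.10. The 9 measured macrophage markers had a mean of 10.86 there and 9.20 to 10.18 elsewhere. The neutrophil granule gene Mmp8 did not exceed the array median on any array. On other arrays the granulocyte mean and Slpi did not go together. In WT at 6 h this mean was 8.34 and 8.40, where Slpi read 8.66 and 8.73. In WT at 24 h it was 8.31 and 8.25, where Slpi read 10.04 and 9.57. The part of granulocytes and macrophages in the Slpi values was not tested. In whole-tissue RNA, fewer cells of a type and less RNA per cell cannot be told apart, here and below.

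**Figure D1:**
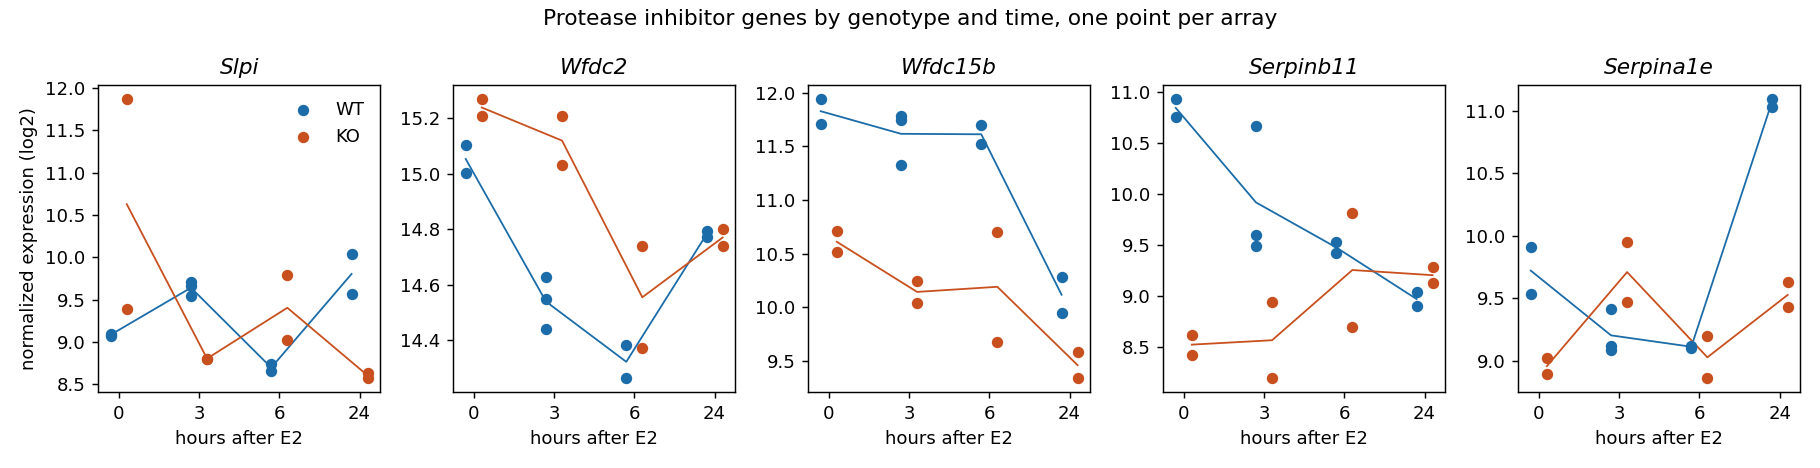
Normalized expression (log2) of Slpi, Wfdc2, Wfdc15b, Serpinb11 and Serpina1e against hours after E2, with 1 point per array, WT in blue and KO in orange, lines joining group means, times evenly spaced and each panel on its own scale. Slpi has a single high KO array at 0 h (11.87), Wfdc15b is lower in KO at every time, Serpinb11 at 0 h differs by -2.32 between KO and WT, and Serpina1e is highest in WT at 24 h (11.03 and 11.09).

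Wfdc2, known in human as HE4, is a WAP-domain protein secreted by epithelia of the reproductive tract. In WT its value was 15.00 and 15.10 at 0 h, 14.44, 14.63 and 14.55 at 3 h, 14.38 and 14.26 at 6 h, and 14.79 and 14.77 at 24 h. For KO the values were 15.27 and 15.21 at 0 h, 15.03 and 15.21 at 3 h, 14.37 and 14.74 at 6 h, and 14.80 and 14.74 at 24 h. By group mean both genotypes were highest at 0 h and lowest at 6 h. The KO arrays at 3 h still lay near their 0 h level, above all 3 WT arrays of that time.

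The Wfdc2 change from 0 h in WT was -0.51 ± 0.09 (log2, SE) at 3 h, -0.73 ± 0.10 at 6 h and -0.27 ± 0.10 at 24 h. The KO change was -0.12 ± 0.10 at 3 h, -0.68 ± 0.10 at 6 h and -0.47 ± 0.10 at 24 h. KO exceeded WT by 0.58 ± 0.09 at 3 h, a 1.50-fold difference, and by 0.19 ± 0.10 at 0 h and 0.23 ± 0.10 at 6 h, with -0.01 ± 0.10 at 24 h. The 6 h value was 0.05 without the second KO array of that time and 0.42 without the first. The genotypes overlapped at 6 and 24 h. The probe reads close to the highest value on the arrays, where the scale may be compressed.

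Wfdc15b is a little-studied WAP-domain gene of the same cluster as Slpi. In WT its value was 11.71 and 11.94 at 0 h, 11.75, 11.32 and 11.78 at 3 h, 11.70 and 11.52 at 6 h, and 9.95 and 10.28 at 24 h. The KO values were 10.71 and 10.51 at 0 h, 10.24 and 10.04 at 3 h, 10.71 and 9.68 at 6 h, and 9.58 and 9.34 at 24 h. The WT arrays at 0, 3 and 6 h all lay between 11.32 and 11.94, with both 6 h arrays just below both 0 h arrays, and WT stood lower at 24 h. Every KO array lay below every WT array of the same time.

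For Wfdc15b KO minus WT was -1.22 ± 0.25 (log2, SE) at 0 h, -1.47 ± 0.23 at 3 h, -1.42 ± 0.25 at 6 h and -0.66 ± 0.25 at 24 h. KO was thus 2.33-fold, 2.78-fold, 2.68-fold and 1.58-fold lower. The 6 h difference was -0.91 without the second KO array of that time and -1.94 without the first. The 24 h level minus the 0 h level was -1.71 ± 0.25 in WT and -1.15 ± 0.25 in KO. A second, dimmer Wfdc15b probe moved the same way with smaller differences, of -0.66, -0.82, -0.80 and -0.33 for KO minus WT at 0, 3, 6 and 24 h.

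Serpinb11 is a clade B serpin, a group of mostly intracellular inhibitors, and the mouse protein blocks trypsin-like proteases. In WT its value was 10.76 and 10.93 at 0 h, 9.60, 9.49 and 10.66 at 3 h, 9.53 and 9.43 at 6 h, and 9.04 and 8.91 at 24 h. In KO it was 8.63 and 8.43 at 0 h, 8.94 and 8.20 at 3 h, 9.82 and 8.70 at 6 h, and 9.13 and 9.29 at 24 h. WT was highest at 0 h and lowest at 24 h, whereas both KO arrays at 6 and 24 h lay above both KO arrays at 0 h. The genotypes were apart at 0 and 3 h, overlapped at 6 h, and at 24 h KO lay just above WT.

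The Serpinb11 change from 0 h in WT was -0.93 ± 0.34 (log2, SE) at 3 h, -1.37 ± 0.37 at 6 h and -1.87 ± 0.37 at 24 h. The differences in KO at the same times were 0.04 ± 0.37, 0.73 ± 0.37 and 0.68 ± 0.37. KO minus WT was -2.32 ± 0.37 at 0 h, a level 4.98-fold lower in KO, and -1.35 ± 0.34 at 3 h, -0.22 ± 0.37 at 6 h and 0.23 ± 0.37 at 24 h. Single arrays weighed on the middle times. Without the third WT array the 3 h difference was -0.97, and at 6 h it was 0.34 without the second KO array and -0.78 without the first. The change at 6 h in KO was 0.17 without the first KO array of that time, and the change at 3 h in KO was 0.42 or -0.33 depending on which KO array of 3 h was left out.

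Wfdc15b and Serpinb11 correlated at r = 0.70 over the 17 arrays, while the other 9 pairs of the 5 genes lay between -0.30 and 0.21. Their courses parted later. KO minus WT at 6 h was -1.42 for Wfdc15b and -0.22 for Serpinb11, and the KO change at 24 h was -1.15 and 0.68. Both were higher in the first KO array at 6 h than in the second, by 1.03 for Wfdc15b and 1.12 for Serpinb11. At 0 and 3 h the mean of the uterine gland markers was lower in KO, as both genes were. Later it did not go with Serpinb11. In WT at 6 h this mean was still 9.13 to 9.23, while Serpinb11 had changed by -1.37 from 0 h. In KO it was 8.54 to 8.56 at 0 h and 8.35 to 8.39 at 24 h, while Serpinb11 had changed by 0.68. Most single gland markers did not pass between the genotypes. Of the 5 gland markers measured, 1 was lower in KO at 0 h (against 4.43% of all genes called) and 2 at 3 h (4.23%). At 6 h 2 were lower (0.631%) and at 24 h 0 (8.35%), with 0 higher at any time. The mean of the 5 measured glandular markers ran from 8.80 to 9.23 in WT at 0 to 6 h, from 8.52 to 8.58 in WT at 24 h and from 8.31 to 8.78 in KO at all times, with the highest KO value, 8.78, on that first array at 6 h. Adipocyte markers moved the other way between these arrays, with a mean of 8.85 on the first and 10.23 on the second. Cxcl15, a chemokine made by uterine glands, read 10.14 and 10.02 in WT and 8.32 and 8.37 in KO at 0 h, and 9.24 and 8.19 on the KO arrays at 6 h. The summed log2 level of the 5 markers was 45.5 and 45.8 in WT and 42.8 and 42.7 in KO at 0 h. Foxa2, which glands need, exceeded the array median on 8 of 17 arrays, and the gland protease Prss28 on none. The part of either cell type in the values of Wfdc15b and Serpinb11 was not tested.

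**Figure D2:**
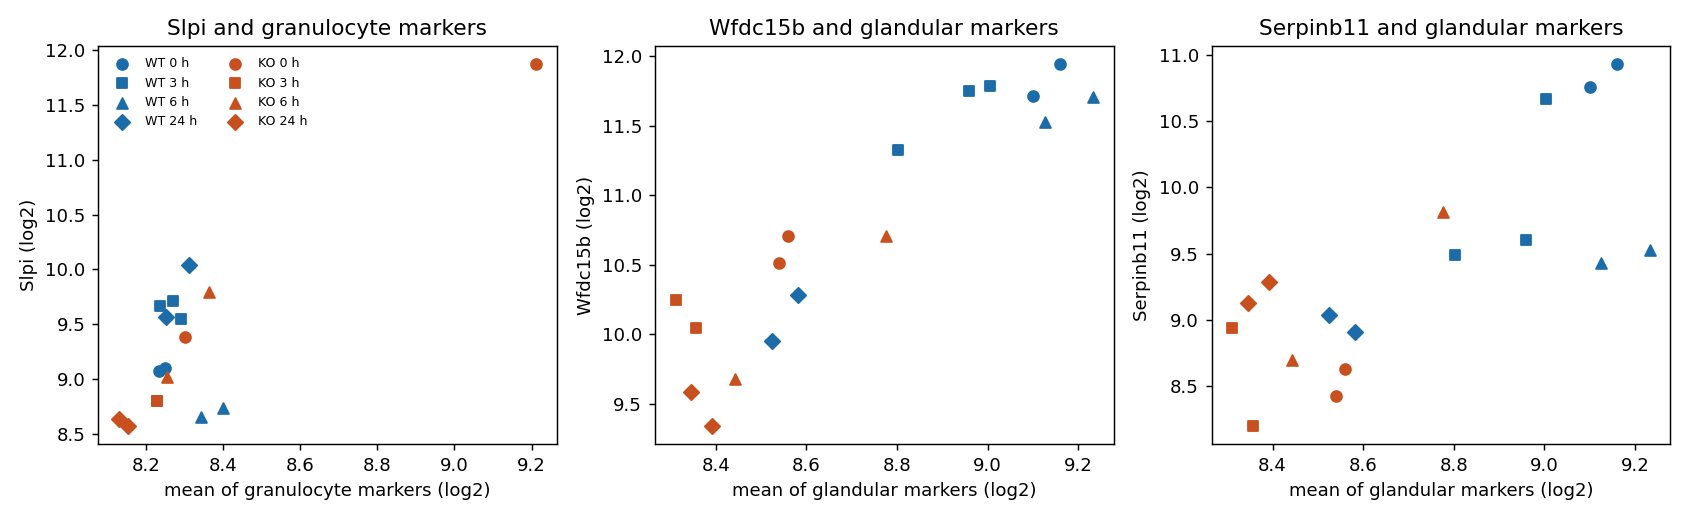
Slpi against the mean of 10 granulocyte markers, and Wfdc15b and Serpinb11 each against the mean of 5 glandular markers (log2 on both axes), with 1 point per array, genotype by colour and time by shape. The second KO array at 0 h stands alone at a granulocyte mean of 9.21 and a Slpi value of 11.87, and the WT arrays at 0 to 6 h hold the highest glandular means and the highest Wfdc15b values.

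Serpina1e is one of the mouse copies of alpha-1-antitrypsin, a serpin that is made chiefly by the liver. In WT its value was 9.91 and 9.53 at 0 h, 9.12, 9.09 and 9.41 at 3 h, 9.11 and 9.12 at 6 h, and 11.03 and 11.09 at 24 h. KO gave 9.02 and 8.89 at 0 h, 9.47 and 9.95 at 3 h, 9.20 and 8.86 at 6 h, and 9.63 and 9.43 at 24 h. WT at 24 h stood above all other groups. KO was below WT at 0 and 24 h, above it at 3 h, and overlapped with it at 6 h.

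The Serpina1e change from 0 h in WT was -0.52 ± 0.15 (log2, SE) at 3 h, -0.61 ± 0.16 at 6 h and 1.34 ± 0.16 at 24 h, the last a 2.53-fold higher level. In KO it was 0.75 ± 0.16, 0.07 ± 0.16 and 0.57 ± 0.16. KO minus WT was -0.76 ± 0.16 at 0 h, 0.51 ± 0.15 at 3 h, -0.08 ± 0.16 at 6 h and -1.53 ± 0.16 at 24 h, where KO was 2.89-fold lower. The 3 h difference was 0.26 without the second KO array of that time and 0.75 without the first. The WT change at 3 h was -0.33 without the first WT array at 0 h.

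The Serpina1 copies are nearly identical in sequence, and a probe of one can bind transcripts of another. The bright probes of Serpina1d and Serpina1b followed Serpina1e with r = 0.99 and 0.98 over the 17 arrays, and in WT at 24 h they read 9.88 ± 0.03 and 9.98 ± 0.07 (SD, n = 2). In KO at 24 h Serpina1d read 8.81 ± 0.08 and Serpina1b 8.91 ± 0.005 (SD, n = 2). A second Serpina1e probe read 7.98 to 8.20 on every array, at or below the array median, and showed none of the pattern. Which copy carries the signal is uncertain, and whether the 3 bright probes read separate transcripts was not tested. Of the 12 listed hepatocyte genes only 3 passed the filter on dim probes, and Alb, the albumin gene, exceeded the array median on 1 of 17 arrays. The epithelial marker mean was 10.92 to 10.94 in WT at 24 h and 10.54 to 10.63 in KO at 24 h, against 9.91 to 10.27 on the arrays of earlier times. It was thus higher in KO at 24 h than in WT at 0 h (9.95 to 10.14), while the Serpina1e values of these groups overlapped. Stromal markers, too, had a higher mean at 24 h (11.80 to 11.82 in WT) than at 6 h (10.59 to 10.69 in WT). The part of any cell type in the Serpina1e values was not tested.

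**Figure D3:**
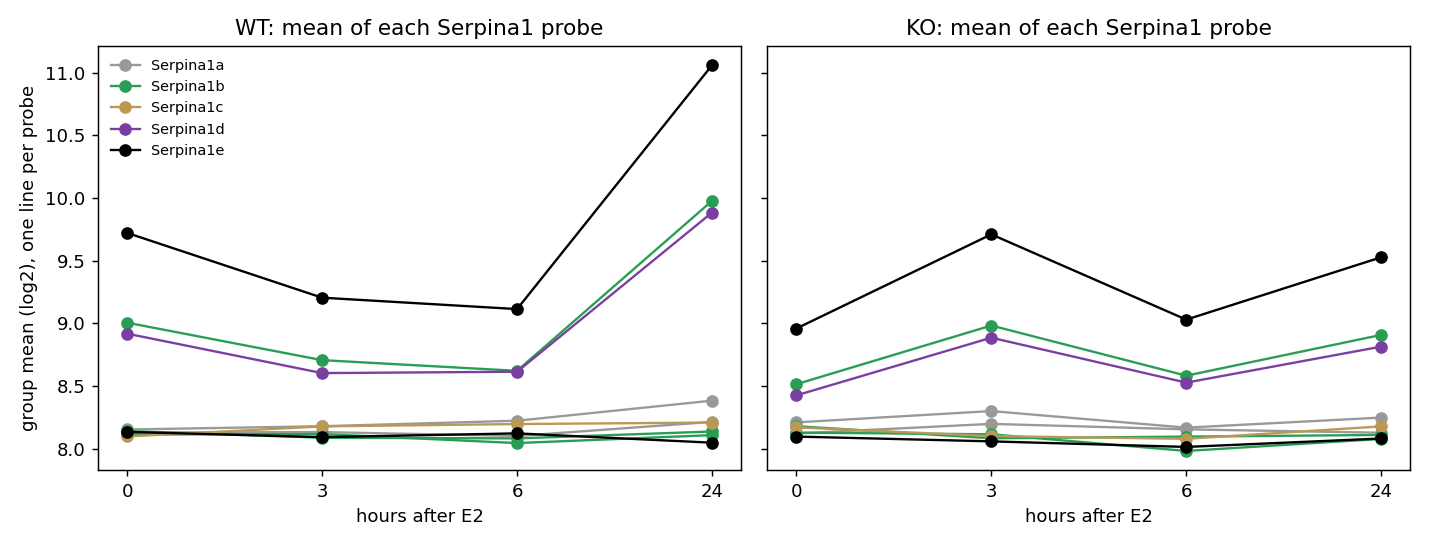
Group means (log2) of every Serpina1a to Serpina1e probe against hours after E2, WT on the left and KO on the right, with 1 line per probe, colour by gene and times evenly spaced. One probe each of Serpina1e, Serpina1b and Serpina1d stands at 9.88 or higher in WT at 24 h, while the other probes stay near the array median of 8.20.

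Set side by side, the genotype differences of the 5 genes had no common direction at any time. The median of the 5 KO minus WT differences was -0.76 at 0 h, -0.84 at 3 h, -0.08 at 6 h and -0.66 at 24 h, where the median of all genes lay within 0.01 of 0 at each time. Counted by the threshold used for all genes, an adjusted p of limma below 0.05, the genotypes differed in 3 of the 5 at 0 h, against 4.43% of all genes. The counts were 3 at 3 h (against 4.23%), 1 at 6 h (against 0.631%) and 1 at 24 h (against 8.35%). For the change from 0 h the counts were 3, 3 and 3 of 5 in WT at 3, 6 and 24 h, where 46.7%, 44% and 37.9% of all genes passed. In KO they were 2, 1 and 4 of 5, against 40.4%, 44.9% and 45.7%. The genes were picked with these comparisons known, so the counts carry no weight of their own. The comparisons with 0 h share the 0 h arrays of their genotype.

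**Figure D4:**
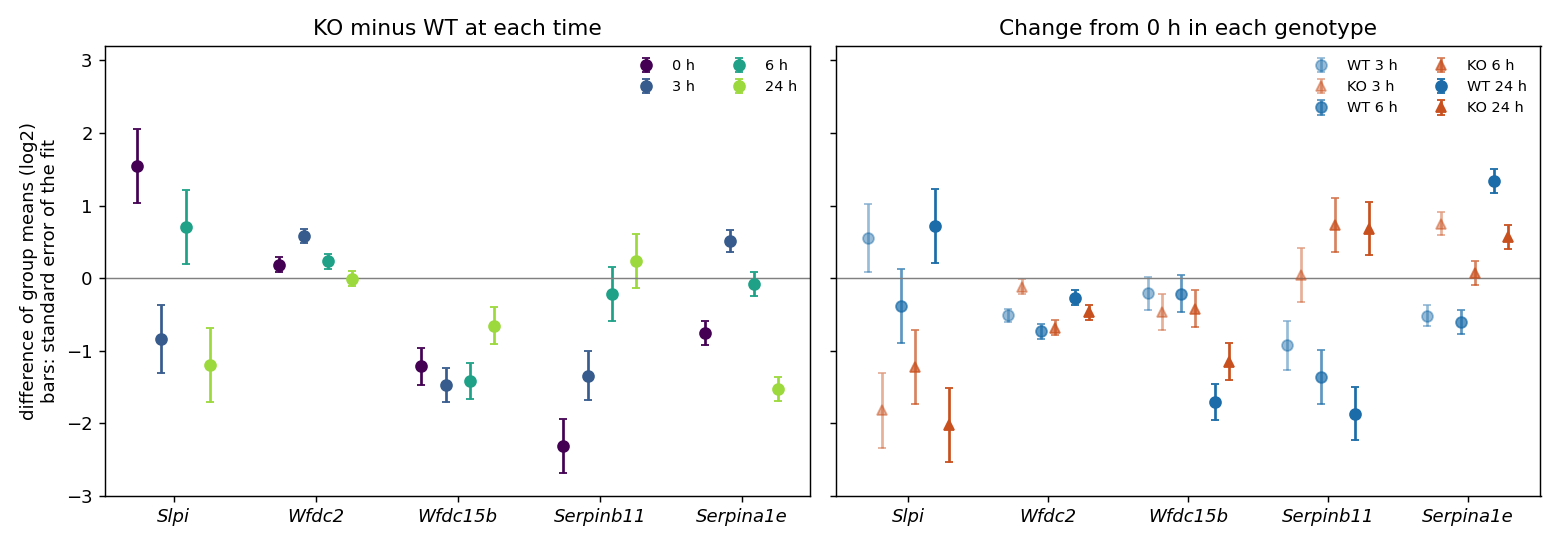
Differences of group means (log2) for the 5 genes, KO minus WT at each time on the left and the change from 0 h in each genotype on the right, with bars of 1 standard error of the fit. Wfdc15b lies below 0 at all 4 times on the left, Serpinb11 goes from -2.32 at 0 h to 0.23 at 24 h, and Slpi changes sign from one time to the next with the widest bars.

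The genes most like each of the 5 were taken as those with the highest Pearson r over the 17 arrays, a description in which arrays of one group are not independent points. For Slpi they were Mzb1 (r = 0.92), Tent5c (0.90) and Pou2af1 (0.89), which are genes of antibody-secreting and B cells, and S100a9 (0.87) and S100a8 (0.86). Without the second KO array at 0 h these were 0.78, 0.67, 0.63, 0.65 and 0.61. For Wfdc2 they were Cox7a2l (0.93), Reck (0.93), Tmie (0.91), Aldh2 (0.91) and Igbp1 (0.91), with Reck itself a membrane inhibitor of metalloproteases. For Wfdc15b they were Gstm7 (0.95), the Wnt inhibitor Wif1 (0.94), the ribonuclease Rnase1 (0.92), Prkg2 (0.92) and the Wnt target Sp5 (0.91). Wif1 read 9.83 and 9.89 in WT and 8.52 and 8.38 in KO at 0 h, and 9.28 and 8.39 on the KO arrays at 6 h. For Serpinb11 they were Sp5 (0.85), the protease inhibitor A2ml1 (0.84), Cxcl15 (0.83), Dio1 (0.82) and Tns4 (0.82), so Sp5 stood in both lists. For Serpina1e, after Serpina1d and Serpina1b, they were the complement protease Cfi (0.93), Cdkn3 (0.91) and Trim36 (0.91). Cfi read 10.14 and 10.11 in WT and 8.98 and 8.97 in KO at 24 h.

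The other genes of both families were looked at to place these 5. Of 71 other WFDC and serpin genes on the array 39 passed the filter on dim probes, 12 WFDC and 27 serpin genes, and the rest were too dim to be tested. Serpina9 and Wfdc18 exceeded the array median only on the WT arrays at 24 h and so passed the filter only through that group. They are left out of the counts that involve WT at 24 h, which leaves 37 genes there. After E2 the count that changed in WT was 5 at 3 h (2 rose, 3 fell), 11 at 6 h (3 rose, 8 fell) and 10 of 37 at 24 h (5 rose, 5 fell). In KO it was 8 at 3 h (3 rose, 5 fell), 10 at 6 h (3 rose, 7 fell) and 15 at 24 h (6 rose, 9 fell). As shares of the genes counted these are 12.8%, 28.2% and 27% in WT and 20.5%, 25.6% and 38.5% in KO, each below the share of all genes given above for the same comparison. The median change of the 39 genes lay between -0.03 and 0.02 in all 6 comparisons.

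Among them Serping1, the C1 inhibitor of the complement and contact systems, fell in both genotypes. From 12.91 ± 0.36 (SD, n = 2) in WT at 0 h it fell by 1.42 ± 0.18 (log2, SE) at 6 h and fell by 1.68 ± 0.18 at 24 h (limma, adjusted p = 2.08e-05 and 1.32e-05). From 13.07 ± 0.26 (SD, n = 2) in KO it fell by 2.24 ± 0.18 at 24 h (limma, adjusted p = 6.79e-07). Wfdc1, a WAP-domain gene, fell by 1.28 ± 0.14 in WT at 6 h (limma, adjusted p = 5.36e-06), where its dimmer probes changed by -0.41 and -0.27, and at 24 h it read 11.54 ± 0.15 in WT and 11.74 ± 0.19 in KO (SD, n = 2). Wfdc10 fell by 1.49 ± 0.14 in KO and fell by 0.87 ± 0.14 in WT at 24 h (limma, adjusted p = 1.49e-06 and 2.28e-04). Serpinh1, the collagen chaperone HSP47, rose in KO by 1.02 ± 0.17 at 6 h (limma, adjusted p = 2.29e-04) and in WT by 0.62 ± 0.17 (limma, adjusted p = 9.49e-03), the latter lost without the second WT array at 0 h, where it was 0.23. Wfikkn2, a protein with WAP and Kunitz domains that binds growth factors of the TGF-beta family, fell by 3.05 ± 0.23 in KO at 24 h (limma, adjusted p = 3.95e-07) and fell by 1.52 ± 0.23 in WT (limma, adjusted p = 1.40e-04). Its other probes, which are near the array median, changed by less than 0.1 there. Serpina3n, an acute-phase serpin, fell by 1.90 ± 0.29 in KO at 24 h (limma, adjusted p = 1.01e-04), and in WT the difference was -0.47 ± 0.29 (adjusted p = 2.57e-01 in limma). Its change of -1.29 at 3 h in KO was -0.77 without the second KO array at 0 h.

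**Figure D5:**
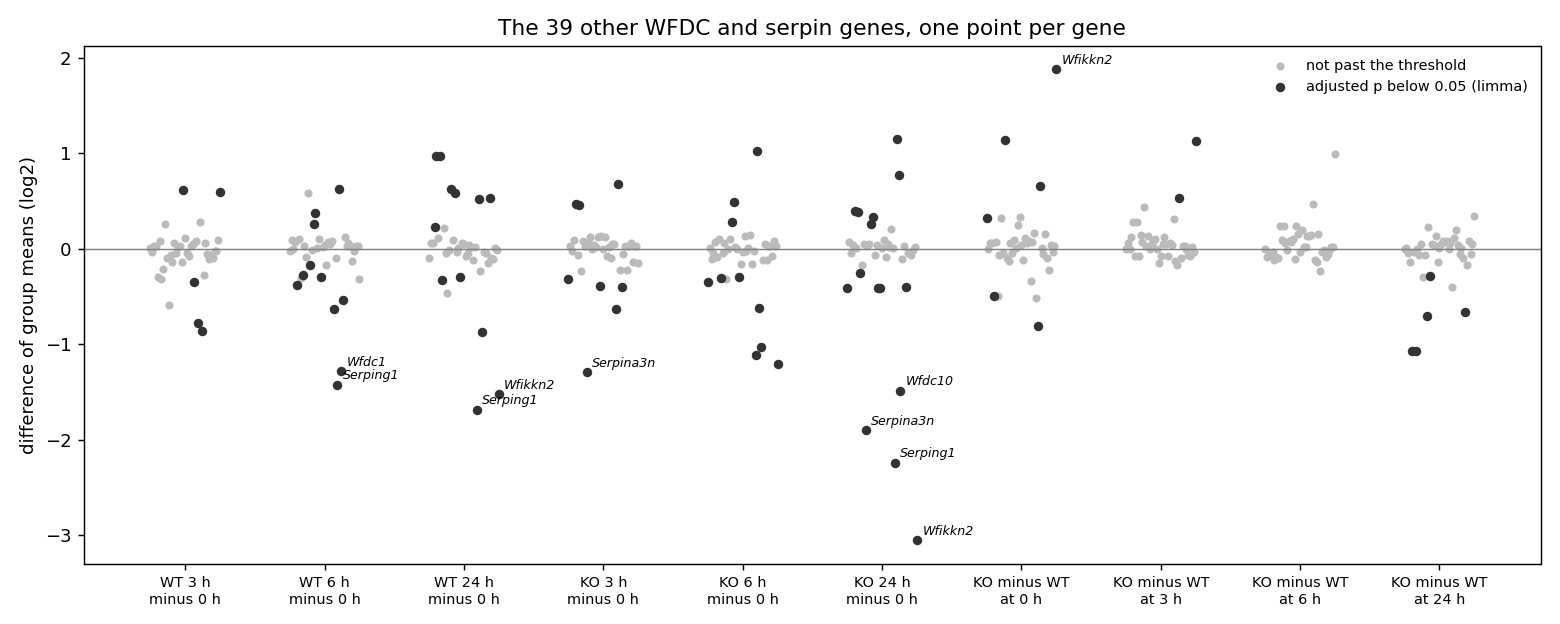
Differences of group means (log2) for the 39 other WFDC and serpin genes in 10 comparisons, with 1 point per gene and dark points for an adjusted p of limma below 0.05, named where the difference is largest. Serpina9 and Wfdc18 are drawn but not counted in the comparisons that use WT at 24 h. Most points lie near 0, and the counted dark points number 5 to 15 in the changes from 0 h and 0 to 6 in KO minus WT.

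Between the genotypes 6 of the 39 differed at 0 h (4 higher in KO, 2 lower), or 15.4% against 4.43% of all genes, and 2 at 3 h (Wfikkn2 and Wfdc10, both higher), or 5.13% against 4.23%. The Wfdc10 call at 3 h, a difference of 0.54, was lost with the replicate block (adjusted p of limma 1.19e-01), with the title letter block and in 3 fits that left out 1 array each. At 6 h 0 of the 39 passed in limma, where 4 had an unadjusted p under 0.05 and 0.631% of all genes passed. At 24 h 3 of 37 were lower in KO and 0 higher, or 8.11% against 8.35%, namely Serpina1d, Serpina1b and Serpinb1a. Serpina1d and Serpina1b followed Serpina1e, which was chosen for its differences, so their calls carry no weight of their own. Wfikkn2 was 1.88 ± 0.23 higher in KO at 0 h (limma, adjusted p = 7.33e-04), and it was 1.13 ± 0.21 higher at 3 h (limma, adjusted p = 8.69e-03), though its other probes differed by less than 0.15 at either time. At 24 h KO minus WT was -1.07 ± 0.14 for Serpina1d and -1.07 ± 0.13 for Serpina1b. This pair cannot be separated from Serpina1e and is given without a test. The other Serpina1b probes differed by -0.03 each. At that time Serpina9 read 8.57 and 8.64 in WT and Wfdc18 8.57 and 8.66, and all other arrays read at most 8.04 and 8.12, below the array median. They are given without a test. The KO change minus the WT change passed in 0 of 39 at 3 h and 0 at 6 h in limma, with 9 and 8 at an unadjusted p under 0.05, and in 2 of 37 at 24 h, Wfikkn2 and Wfdc1. Of all genes 1.09%, 0.4% and 7.27% passed.

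The count at 0 h depended on single arrays. It was 1 of 39 without the first WT array at 0 h, 11 without the second, 3 without either KO array at 0 h, and 0 when only the 0 h arrays were fitted. Serpina3n, with 10.78 ± 0.74 in KO and 9.64 ± 0.12 in WT (SD, n = 2), passed at 0 h with an adjusted p of 4.56e-02 in limma and did not pass in 11 of the fits that left out 1 array, with a difference of 0.61 without the second KO array against 1.14 with it. Adipocyte markers, whose 6 measured genes had a mean of 11.34 to 11.48 in KO and 10.48 to 10.99 in WT at 0 h and at most 10.23 later, differed along with the 0 h arrays, and their part was not tested.

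Other protease inhibitors and the serine proteases themselves complete the picture. Both lists were chosen with earlier results of these data known, so their counts and shares carry no weight of their own. Of 25 tested Spink, Spint, Timp, Itih, cystatin and related genes, 9, 8 and 8 passed in WT at 3, 6 and 24 h and 9, 10 and 7 in KO. These are 36%, 32% and 32% in WT, against 46.7%, 44% and 37.9% of all genes, and 36%, 40% and 28% in KO, against 40.4%, 44.9% and 45.7%, with median changes between -0.05 and 0.02. Cstb, the cysteine protease inhibitor cystatin B, rose by 1.74 ± 0.07 in WT at 3 h and by 1.23 ± 0.08 in KO (limma, adjusted p = 9.87e-10 and 4.71e-08). Timp1, an inhibitor of metalloproteases, rose in WT by 1.45 ± 0.19 at 6 h, while Timp2, of the same family, fell by 1.20 ± 0.12 (limma, adjusted p = 2.49e-05 and 2.76e-06). In KO at 6 h Timp1 rose by 1.06 ± 0.19 and Timp2 fell by 1.08 ± 0.12 (limma, adjusted p = 3.12e-04 and 5.96e-06). Timp3 fell by 1.87 ± 0.13 in KO and fell by 1.11 ± 0.13 in WT at 24 h (limma, adjusted p = 3.15e-07 and 2.73e-05), though its 2 dimmer probes changed by less than 25% of that in either genotype. Reck, the gene most like Wfdc2 but one, fell by 0.97 ± 0.11 in WT and fell by 1.08 ± 0.11 in KO at 6 h (limma, adjusted p = 4.96e-06 and 1.65e-06) and was 0.59 ± 0.10 higher in KO at 3 h (limma, adjusted p = 4.74e-03). Between the genotypes 5 of 25 passed at 0 h (4 higher in KO, 1 lower), or 20% against 4.43% of all genes. Itih4, Timp3, Spink8 and Reck were the 4 with the largest differences there. Each of these 4 calls was lost with only the 0 h arrays fitted. Leaving out 1 array lost the 0 h call of Itih4 in 12 fits, of Reck in 10, of Timp3 in 3 and of Spink8 in 1. Reck and Cstb passed at 3 h (8% against 4.23%), Spink8 at 6 h (4% against 0.631%) and Timp2 at 24 h (4% against 8.35%). Spink8, a Kazal-type inhibitor, read 8.49 in KO and 9.14 in WT at 6 h as group means, a difference of -0.65 ± 0.08 (limma, adjusted p = 6.26e-03). Of these the call of Cstb was lost without the second KO array at 3 h and that of Spink8 without the first WT array at 6 h or with only the compared groups fitted. The call of Timp2 was lost in 10 of the fits that left out 1 array and with no filter, and that of Reck at 3 h in no alternative run.

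The serine proteases were picked gene by gene with earlier results of these data known, so their shares below are a description. Of 20 tested serine proteases 7, 4 and 7 passed in WT at 3, 6 and 24 h, and 10, 7 and 8 in KO. These are 35%, 20% and 35% in WT, against 46.7%, 44% and 37.9% of all genes, and 50%, 35% and 40% in KO, against 40.4%, 44.9% and 45.7%, with median changes between -0.12 and 0.03. Prss22, a tryptase of epithelia, rose at 3 h by 2.57 ± 0.21 in WT and by 1.70 ± 0.23 in KO (limma, adjusted p = 2.69e-07 and 4.06e-05). Tmprss2, a membrane protease, rose at 3 h by 1.37 ± 0.14 in WT and by 2.17 ± 0.16 in KO (limma, adjusted p = 2.81e-06 and 1.94e-07). Plat, the tissue plasminogen activator, fell by 2.74 ± 0.24 in WT and fell by 1.10 ± 0.24 in KO at 24 h (limma, adjusted p = 3.20e-06 and 1.66e-03), though its 2 dimmer probes changed by less than 25% of that. Between the genotypes Plat passed at 0 h (5% against 4.43% of all genes), Plat, Prss22 and Tmprss2 at 3 h (15% against 4.23%), and Tmprss11a and Tmprss4 at 24 h, both lower in KO (10% against 8.35%), while at 6 h 0 of 20 passed in limma, where 4 had an unadjusted p under 0.05. KO minus WT for Plat was -1.07 at 0 h and -1.12 at 3 h. Its 2 dimmer probes gave -0.18 and 0.03 at 0 h and 0.01 and 0.09 at 3 h. With the replicate block the 3 calls at 3 h were lost, with adjusted p of limma 6.22e-02 for Plat, 1.27e-01 for Prss22 and 7.21e-02 for Tmprss2. The Prss22 call was also lost in 13 of the fits that left out 1 array, that of Plat at 0 h without any 1 of the 4 arrays at 0 h, and that of Tmprss4 without the second KO or the first WT array at 24 h. Tmprss11a, a membrane protease of squamous and airway epithelia, shared with Serpina1e its high WT value at 24 h. It read 9.74 ± 0.004 in WT and 8.15 ± 0.05 in KO at 24 h (SD, n = 2), a difference of -1.58 ± 0.13 (limma, adjusted p = 2.52e-05).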

How the data were processed

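Total uterine RNA of 17 arrays in 8 groups was measured. The deposited values are log2 intensities that the authors had normalized between arrays, as the table itself shows by its equal quantiles. BeadStudio was used, per the submitters' processing notes. The sources used here name neither its version nor the background correction and offset. Detection calls and scanner values were not used here. No sequencing depth applies, and the number of arrays limits the precision.

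The platform annotation gave 34885 of 45281 probes 1 gene symbol and 18 several, and 10378 were not in it. By Entrez number 34807 probes matched the RefSeq table of GRCm38.p6, which changed 0 symbols. Probes above the array median on at least 2 arrays were kept, and each gene took its brightest probe by the 17-array mean, for 14737 genes. A mean per group was fitted with limma 3.58.1 in R 4.3.3 and moderated by empirical Bayes (residual degrees of freedom 9, prior 4.56). Tests were two-sided, with Benjamini-Hochberg adjustment over 14737 genes within each of 13 comparisons and a threshold of 0.05. The fit was tested on simulated data.

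The 5 genes and the gene lists were chosen with earlier results of these data known. Besides them, the text names, in each comparison, genes among the up to 4 with the largest difference past the threshold in each list, and for each of the 5 genes the 5 most like it. Serpinb1a is named outside this rule, only to complete the family genes counted as lower in KO at 24 h. Promoter sequences come from RefSeq (GRCm38.p6). Alternatives were no filter, a filter at the 75th percentile, the mean of a gene's probes, an intensity trend, only the groups compared, a block for the replicate number or title letter, and each array left out in turn.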

Additional observations from a re-analysis of the deposited data

Results flagged for a closer look

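For some genes the change from 0 h differed between the genotypes. For Slpi the KO change minus the WT change was -2.38 (log2) at 3 h and -2.74 at 24 h, for Serpina1e 1.27 at 3 h, and for Serpinb11 2.10 at 6 h and 2.55 at 24 h. In these cases the arrays of the later time lay all above the 0 h arrays in one genotype and all below them in the other. Arrays of different times are not paired, groups hold 2 or 3 arrays, and the share of all genes with this pattern was not taken. For Serpinb11 the lower KO array at 6 h read 8.70 and the higher KO array at 0 h 8.63. The genes were chosen with these changes known, so the difference was not tested. The Slpi values were -1.14 at 3 h and -1.50 at 24 h without the second KO array at 0 h.

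For other genes the difference of the changes passed in limma's interaction test. At 24 h it was -1.53 for Wfikkn2 and 1.01 for Wfdc1, which is 2 of 37 other WFDC and serpin genes, or 5.41% against 7.27% of all genes. The call for Wfdc1 was lost without the second KO array at 24 h, and that for Wfikkn2 without the second KO array at 24 h, the first WT array at 0 h or the second WT array at 24 h. Among other inhibitors it was -0.76 for Timp3 and -0.34 for Spint2 at 24 h, and -0.51 for Cstb at 3 h, each lost when one of several single arrays was left out. Among serine proteases it was 1.64 for Plat, lost without the first WT array at 24 h, and -1.56 for Tmprss11a at 24 h. The dimmer Plat probes gave 0.16 and 0.04 there.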

How the results depend on the processing

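Across the alternatives no named gene that passed the threshold reversed its direction. Among the values of the other named genes 3783 kept their direction and side of the threshold, 238 no longer passed and 49 newly passed. The count of the 39 other WFDC and serpin genes past the threshold moved by over 1.5 times as follows, and the cause was not tested. These counts include Serpina9 and Wfdc18, without which 10, 3 and 2 passed for WT at 24 h, KO minus WT at 24 h and the interaction at 24 h. With only the groups compared in the fit, it went from 5 to 8 in WT at 3 h, from 8 to 5 in KO at 3 h, from 6 to 0 for KO minus WT at 0 h, from 5 to 8 for KO minus WT at 24 h, and from 4 to 7 for the interaction at 24 h. With an intensity trend it went from 5 to 9 in WT at 3 h and from 0 to 1 for the interaction at 3 h. With the stricter filter it went from 5 to 3 for KO minus WT at 24 h and from 0 to 1 for the interaction at 3 h. With the replicate block it went from 2 to 1 for KO minus WT at 3 h and from 0 to 1 at 6 h. With the block for the title letter it went from 2 to 1 at 3 h, from 0 to 1 at 6 h, from 0 to 2 for the interaction at 3 h and from 4 to 7 at 24 h. The replicate numbers share only a number, since deviations of same-numbered arrays correlated at -0.19 to 0.28. Leaving out each array in turn gave 4 to 8 in WT at 3 h, 8 to 12 at 6 h and 8 to 12 at 24 h. In KO it gave 6 to 9, 9 to 11 and 9 to 15, the 9 at 24 h without the second KO array at 0 h. For KO minus WT it gave 1 to 11 at 0 h, 1 to 4 at 3 h, 0 to 2 at 6 h and 4 to 5 at 24 h. For the interaction it gave 0 to 4 at 3 h, 0 to 1 at 6 h and 2 to 8 at 24 h, where 0, 0 and 4 passed with all arrays, and 9 and 8 had an unadjusted p under 0.05 in limma at 3 and 6 h. The share of all genes past the threshold moved too, as for KO minus WT at 0 h, where 653 of 14737 genes passed, 8 with only those groups in the fit and 183 without the second KO array. Dim probes near the array median have compressed differences, and with 2 arrays in most groups only large differences can be told from the spread.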
